A study of Rattus norvegicus with 16 samples.

Results

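The genes described here are 40 structural and remodelling genes of the extracellular matrix, and their transcripts were followed in the soleus muscle of 16 female rats. Members are the fibrillar, type VI, fibril-associated and basement membrane collagens, the laminins and nidogens, matrix glycoproteins, collagen crosslinking enzymes, and matrix proteinases with their inhibitors. A gene was measured where an array probe set carried its symbol and no other in the platform annotation, and the probe set of highest mean over the 16 arrays stood for it. That gave 39 of the 40 genes, with Thbs1 not analysed here, among 14217 genes with such a probe set. The 39 genes had 66 probe sets, 16 genes having 1 and 23 having more.

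The rats were of generation 16 of lines started from N:NIH stock and selected for how well they ran on a treadmill. HCR is the line of high capacity runners and LCR the line of low capacity runners. The groups were HCR trained, HCR sedentary, LCR trained and LCR sedentary, with 4 rats and 4 arrays each. Trained rats ran uphill intervals on a treadmill for 8 weeks, sedentary rats did no exercise training, and all were killed at about 7 months, trained rats 48 hours after the last session. No group carried an introduced allele, and a difference between the lines is a difference between selected stocks. The labels give each sample as its own rat, and p-values measure differences against the variation among rats of a group.

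Soleus fibres are held in layers of connective tissue whose main cellular source is the fibroblast. Fibrillar collagens I, III and V bear tension, type VI collagen forms a fine network around each fibre, and type IV collagen, laminins, nidogens and perlecan make the basement membrane to which the fibre is anchored. Lysyl oxidases crosslink collagen outside the cell, metalloproteinases cut matrix proteins, and TIMP proteins inhibit the metalloproteinases. Tenascin C and periostin are known as proteins made where connective tissue is being rebuilt, as after injury or overload.

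The deposited values are log2 expression, so 1 unit is a 2-fold difference, and 31042 probe sets entered the tests. Array medians lay between 5.902 and 5.98. Myh7, the slow myosin heavy chain that defines soleus fibres, read 14.27 to 14.52 on 15 arrays and 12.05 on the array HCR trained 3, so that array stood apart in its fibre transcripts. Because each array held a piece of whole muscle, fewer cells of a type and less RNA per cell cannot be told apart. Levels of different genes are not compared, since each probe set has its own response.

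Promoters were available for 26 of the 39 measured genes, as windows from 250 bases before to 50 bases after the start site in RefSeq assembly GRCr8. The letters searched on both strands were CCAAT (the CCAAT box), GGGCGG (the GC box), TATAAA (the TATA box) and TGANTCA (the AP-1 motif). Matches of different motifs share no base in the 4 windows printed. GGGCGG stood in 17 of the 26 windows (65.4%), against 33.1% of 33469 rat promoter windows of the same length. CCAAT stood in 7 windows (26.9%, against 37.5%), TATAAA in 3 (11.5%, against 14.2%) and TGANTCA in 1 (3.85%, against 7.33%). A match describes the letters of the window and is not a binding site. Windows are shown for 4 genes the results turn on, 5′ to 3′ on the gene's own strand, with matches on either strand in capitals. Col1a2 lies at chr4:33518307-33518606 on the plus strand and holds a CCAAT box and a TATA box. Col4a1, at chr16:84885347-84885646 on the plus strand, and Col4a2, at chr16:84885471-84885770 on the minus strand, are transcribed away from each other from start sites 77 bases apart, and their windows share 176 bases. Mmp24, whose values followed another pattern than most members, lies at chr3:164738976-164739275 on the plus strand with 5 GC boxes.
Col1a2: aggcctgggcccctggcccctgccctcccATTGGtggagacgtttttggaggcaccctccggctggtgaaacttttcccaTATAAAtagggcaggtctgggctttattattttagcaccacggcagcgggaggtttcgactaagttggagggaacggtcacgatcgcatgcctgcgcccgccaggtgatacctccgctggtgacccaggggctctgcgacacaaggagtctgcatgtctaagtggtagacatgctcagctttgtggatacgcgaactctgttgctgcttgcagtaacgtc
Col4a1: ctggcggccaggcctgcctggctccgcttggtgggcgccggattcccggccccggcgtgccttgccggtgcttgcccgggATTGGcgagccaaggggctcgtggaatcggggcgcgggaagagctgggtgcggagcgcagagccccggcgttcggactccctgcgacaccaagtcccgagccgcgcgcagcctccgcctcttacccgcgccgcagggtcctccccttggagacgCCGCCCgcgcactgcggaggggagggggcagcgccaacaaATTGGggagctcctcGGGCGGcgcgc
Col4a2: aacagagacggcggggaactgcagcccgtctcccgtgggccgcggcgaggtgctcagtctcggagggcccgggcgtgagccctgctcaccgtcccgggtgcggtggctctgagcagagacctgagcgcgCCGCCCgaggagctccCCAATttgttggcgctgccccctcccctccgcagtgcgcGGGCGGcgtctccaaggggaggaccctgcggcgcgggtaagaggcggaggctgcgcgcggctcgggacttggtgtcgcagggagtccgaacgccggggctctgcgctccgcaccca
Mmp24: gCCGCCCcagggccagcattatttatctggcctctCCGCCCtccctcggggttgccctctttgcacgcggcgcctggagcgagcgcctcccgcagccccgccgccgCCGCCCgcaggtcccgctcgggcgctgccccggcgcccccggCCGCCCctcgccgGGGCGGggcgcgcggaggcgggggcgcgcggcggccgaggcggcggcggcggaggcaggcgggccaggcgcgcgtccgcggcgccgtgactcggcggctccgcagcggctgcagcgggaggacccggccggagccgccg

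Most of the matrix genes moved together from rat to rat, and 2 of the 16 arrays carried most of that movement. The array HCR sedentary 2 was the highest of 16 for 30 of the 39 genes, and the array LCR trained 2 was the highest for 4 and the second highest for 29. Set against the median of the other 15 arrays, the median gene was higher by 1.66 on HCR sedentary 2 and by 1.14 on LCR trained 2, while the median over all 14217 genes differed by -0.01 and -0.05 on those arrays. HCR sedentary 2 held 44.0% of the summed squared deviation of the 39 genes from their means, and 18.8% of that of all genes. LCR trained 2 held 18.7%, and 7.02% of that of all genes. The mean of the 39 genes on HCR sedentary 2 stood 1.48 above its 16-array mean, and on LCR trained 2 it stood 1.001 above. HCR trained 3 had the lowest mean, -0.56, and was the lowest array for 19 genes. Of all genes, it was the lowest array for 16.8% and the highest for 18.5%. It held 7.69% of the summed squared deviation of the 39 genes and 22.3% of that of all genes. The labels set none of these rats apart from others of their group.

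**Figure D1:**
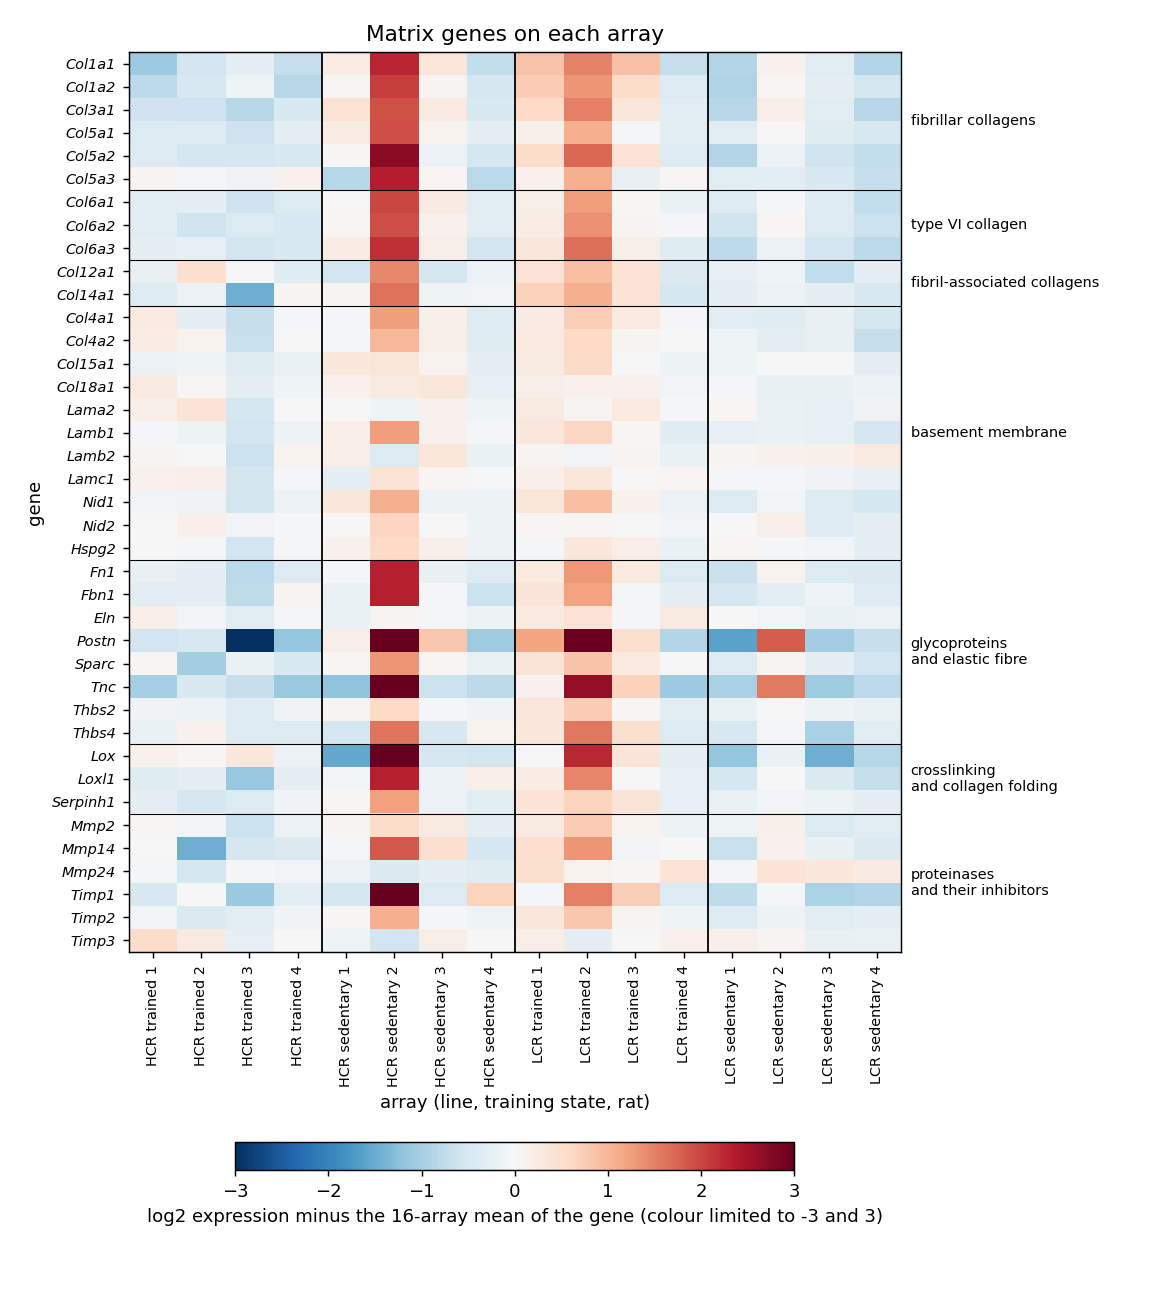
Deviation of each of 39 matrix genes (top to bottom, grouped by role) from its 16-array mean, in log2 units, on each array (columns, by group). Red is above and blue below the mean. The array HCR sedentary 2 is the darkest red column and LCR trained 2 the next, while Lama2, Lamb2, Timp3 and Mmp24 do not share it.

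The first principal component of the 39 genes held 84.1% of their variance over the 16 arrays, against 29.6% for all genes. With group means removed, these shares were 84.1% and 30.9%. Without HCR sedentary 2 and LCR trained 2, they were 57.3% for the matrix genes and 32.7% for all genes, and with group means removed 57.0% and 43.3%. These shares describe genes measured on the same arrays and carry no test. Members that did not share the pattern were Lama2, Lamb2, Mmp24 and Timp3, for which HCR sedentary 2 ranked 13, 15, 15 and 16 of the 16 arrays.

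Training went with lower average matrix transcripts in HCR and higher ones in LCR, but no gene of the 39 passed the test in either line. The test was limma's moderated test over all probe sets with Benjamini-Hochberg adjustment at 0.05. In HCR, the trained rats were lower for 35 genes and higher for 4, with a median difference of -0.50, beside 0.02 over all genes. Of all probe sets, 58 passed in HCR (0.187%), and 0 of the 39 genes did. At an unadjusted p under 0.05 there were 11 lower and 0 higher members, beside 823 lower and 1890 higher among all genes. In LCR, the trained rats were higher for 38 genes and lower for 1, with a median difference of 0.67, beside -0.03 over all genes. There 1 probe set of all passed (0.00322%), 0 members passed, and 9 members were higher and 0 lower at an unadjusted p under 0.05, beside 526 higher and 995 lower among all genes.

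Groups that did not overlap were counted beside the same count over all 14217 genes. In HCR, all 4 trained rats were below all 4 sedentary rats for Col6a2, Lamb1 and Loxl1, that is 3 of 39, while 2.19% of all genes had this order. No member had the opposite order in HCR, which 6.13% of all genes had. In LCR, all 4 trained rats were above all 4 sedentary rats for Col5a3, Col4a1, Col4a2, Lamc1 and Timp2, that is 5 of 39, while 3.33% of all genes did so. No member had the trained LCR rats all below, which 6.82% of all genes had.

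The medians depended on the arrays that stood apart. Without HCR sedentary 2, the median training difference in HCR was -0.20, with 28 genes lower and 11 higher. Without both HCR sedentary 2 and HCR trained 3 it was -0.10, with 25 lower and 14 higher, and the interaction median was -0.68. Without LCR trained 2, the median in LCR was 0.41, and 38 of 39 genes were still higher. The comparisons share groups with each other: HCR sedentary 2 enters both the HCR training and the sedentary line comparison, and LCR trained 2 enters both the LCR training and the trained line comparison, so the 4 comparisons are not separate evidence.

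**Figure D2:**
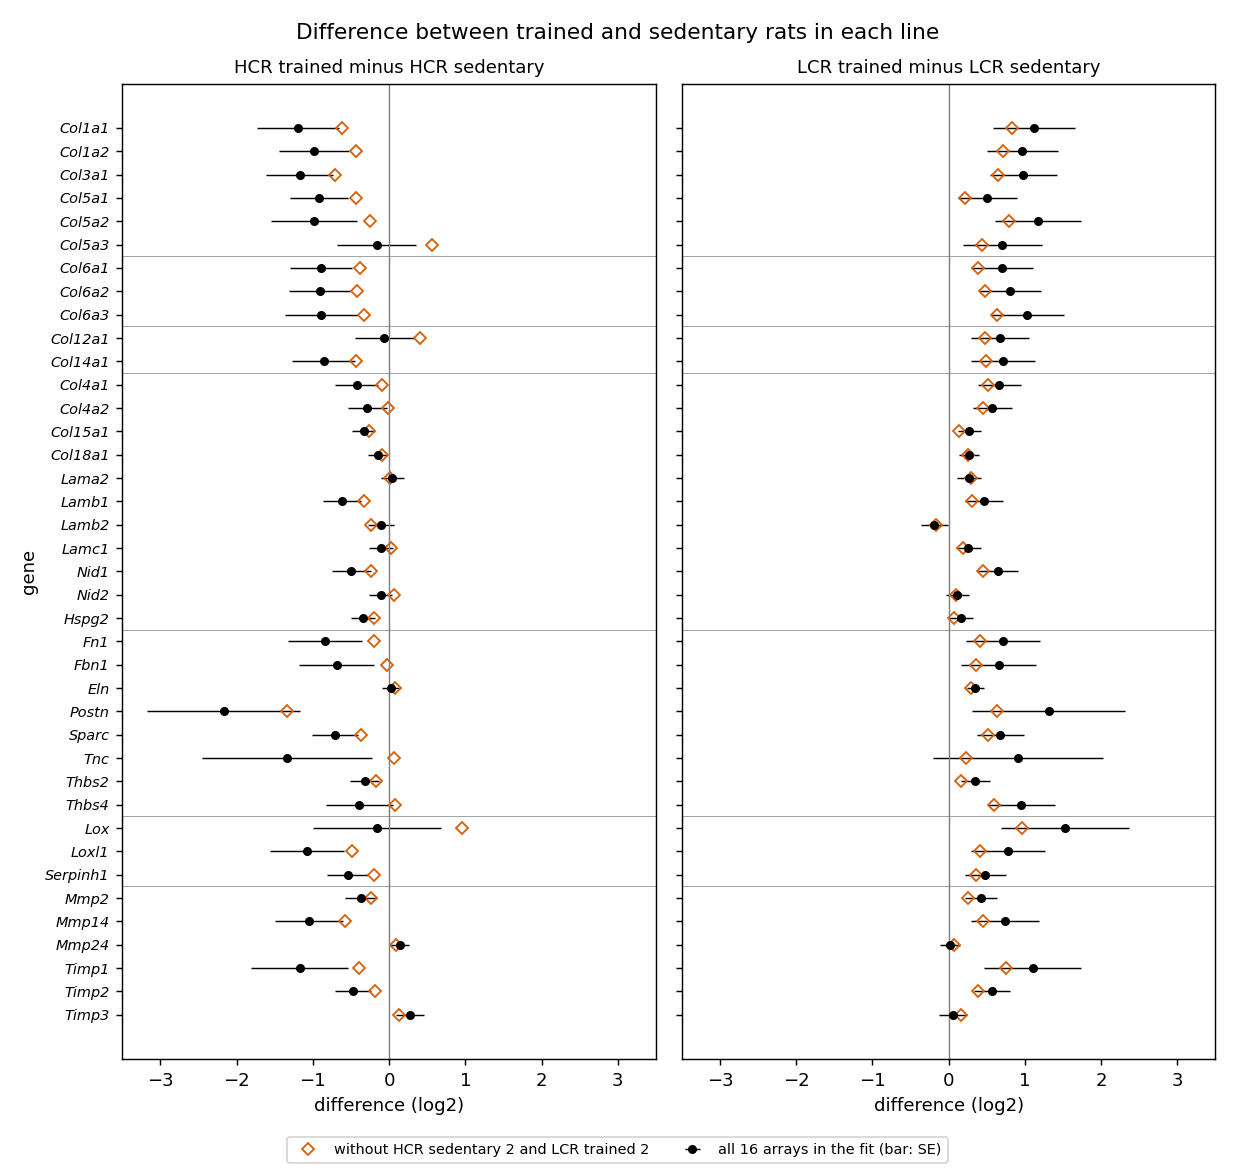
Training difference of each of 39 matrix genes in HCR (left) and LCR (right), in log2 units. Black points with bars give the fitted difference and its standard error over all 16 arrays, and open diamonds the difference without HCR sedentary 2 and LCR trained 2. Black points lie left of 0 for 35 genes in HCR and right of 0 for 38 in LCR.

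Between the lines, most members were higher in HCR among sedentary rats and lower in HCR among trained rats, with 0 past the threshold in either. Among sedentary rats, HCR was higher than LCR for 36 genes and lower for 3, with a median of 0.63, beside -0.003 over all genes. 0 members passed, with 3 probe sets passing of all (0.00966%), and 8 members were higher and 1 lower at an unadjusted p under 0.05, beside 556 higher and 851 lower among all genes. The HCR sedentary rats were all above the LCR sedentary rats for 3 members, Col14a1, Lamb1 and Timp2 (2.36% of all genes had this order), and all below for Mmp24 (3.28%). Without HCR sedentary 2 the median was 0.24, with 33 genes higher and 6 lower.

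Among trained rats, HCR was lower than LCR for 37 genes and higher for 2, with a median of -0.53, beside 0.05 over all genes. 0 members passed, the smallest adjusted p being 0.107 for Mmp24, with 116 probe sets passing of all (0.374%). At an unadjusted p under 0.05, 14 members were lower and 0 higher, beside 730 lower and 1836 higher among all genes. The trained HCR rats were all below the trained LCR rats for 5 members, Col3a1, Col6a1, Col6a2, Loxl1 and Mmp24, where 3.52% of all genes had this order. No member had the reverse order, which 8.9% of all genes had. Without LCR trained 2 the median was -0.34, with 35 genes lower. With limma's array weights, which count variable arrays less, 4 of the 39 members passed in this comparison (Col1a1, Col1a2, Col3a1 and Sparc), beside 3525 of 31042 probe sets. Without HCR sedentary 2 and HCR trained 3 Col1a2 alone of the 39 passed, beside 1315 of 31042 probe sets. In neither setting did members pass at a higher share than all probe sets.

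The interaction asks whether the training difference in HCR differs from that in LCR. It was negative for 36 members and positive for 3, with a median of -1.15, beside 0.06 over all genes. No probe set passed (0.0%), the smallest adjusted p of a member was 0.126 for Col3a1, and 27 members were negative and 0 positive at an unadjusted p under 0.05, beside 847 and 1862 of all genes. Without HCR sedentary 2 and LCR trained 2, the median was -0.56, beside 0.05 over all genes, with 37 members negative. In that fit 0 members passed, the smallest adjusted p being 0.257 (limma).

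Among the fibrillar collagens, which form the tension-bearing fibres, all 6 genes were lower in trained than in sedentary HCR rats and higher in trained than in sedentary LCR rats. Col1a1, the main chain of type I collagen, read 9.84, 10.35, 10.63 and 10.20 in trained HCR rats, against 11.13, 13.20, 11.29 and 10.18 in sedentary HCR rats. In LCR it read 11.77, 12.42, 11.81 and 10.21 in trained rats, against 10.05, 11.05, 10.58 and 10.04 in sedentary rats. In each line 1 rat of the group with the higher mean lay within the range of the other group. The training difference was -1.20 in HCR (SE 0.54, adjusted p = 0.264, limma) and 1.12 in LCR (SE 0.54, adjusted p = 0.521, limma), and without the arrays that stood apart these were -0.62 and 0.83.

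Col3a1, the type III chain of pliable fibres, read 11.11, 11.09, 10.90 and 11.27 in trained HCR rats, against 12.17, 13.64, 11.999 and 11.25 in sedentary HCR rats. It read 12.31, 13.24, 12.07 and 11.39 in trained LCR rats, against 10.88, 11.91, 11.40 and 10.90 in sedentary LCR rats. The trained HCR values were close together and all under the trained LCR values. Its training difference was -1.17 in HCR (a 2.25-fold difference, SE 0.44, adjusted p = 0.187, limma) and 0.98 in LCR (SE 0.44, adjusted p = 0.491, limma). Between lines it was 0.99 in sedentary rats (adjusted p = 0.590, limma) and -1.16 in trained rats (adjusted p = 0.163, limma). The interaction was -2.15 (SE 0.62, unadjusted p = 0.00338, adjusted p = 0.126, limma), and -1.37 without HCR sedentary 2 and LCR trained 2.

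The other fibrillar genes were Col1a2, the partner chain of type I, and Col5a1, Col5a2 and Col5a3, chains of type V collagen, which sits inside type I fibres and limits their width. Col5a1 differed by -0.92 with training in HCR (SE 0.38, adjusted p = 0.230, limma) and by 0.51 in LCR. Col5a2 differed by -0.99 in HCR (SE 0.56, adjusted p = 0.381, limma) and by 1.17 in LCR (SE 0.56, adjusted p = 0.520, limma), the largest difference of the 6 genes in LCR. Over the 6 fibrillar genes the median training difference was -0.99 in HCR and 0.97 in LCR, and without both arrays it was -0.43 and 0.68. Col5a3 did not keep its sign. It read 7.95, 7.80, 7.77 and 8.00 in trained HCR rats, against 7.00, 10.21, 7.92 and 7.05 in sedentary HCR rats. Its training difference in HCR was -0.16 with all arrays and 0.56 without HCR sedentary 2.

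**Figure D3:**
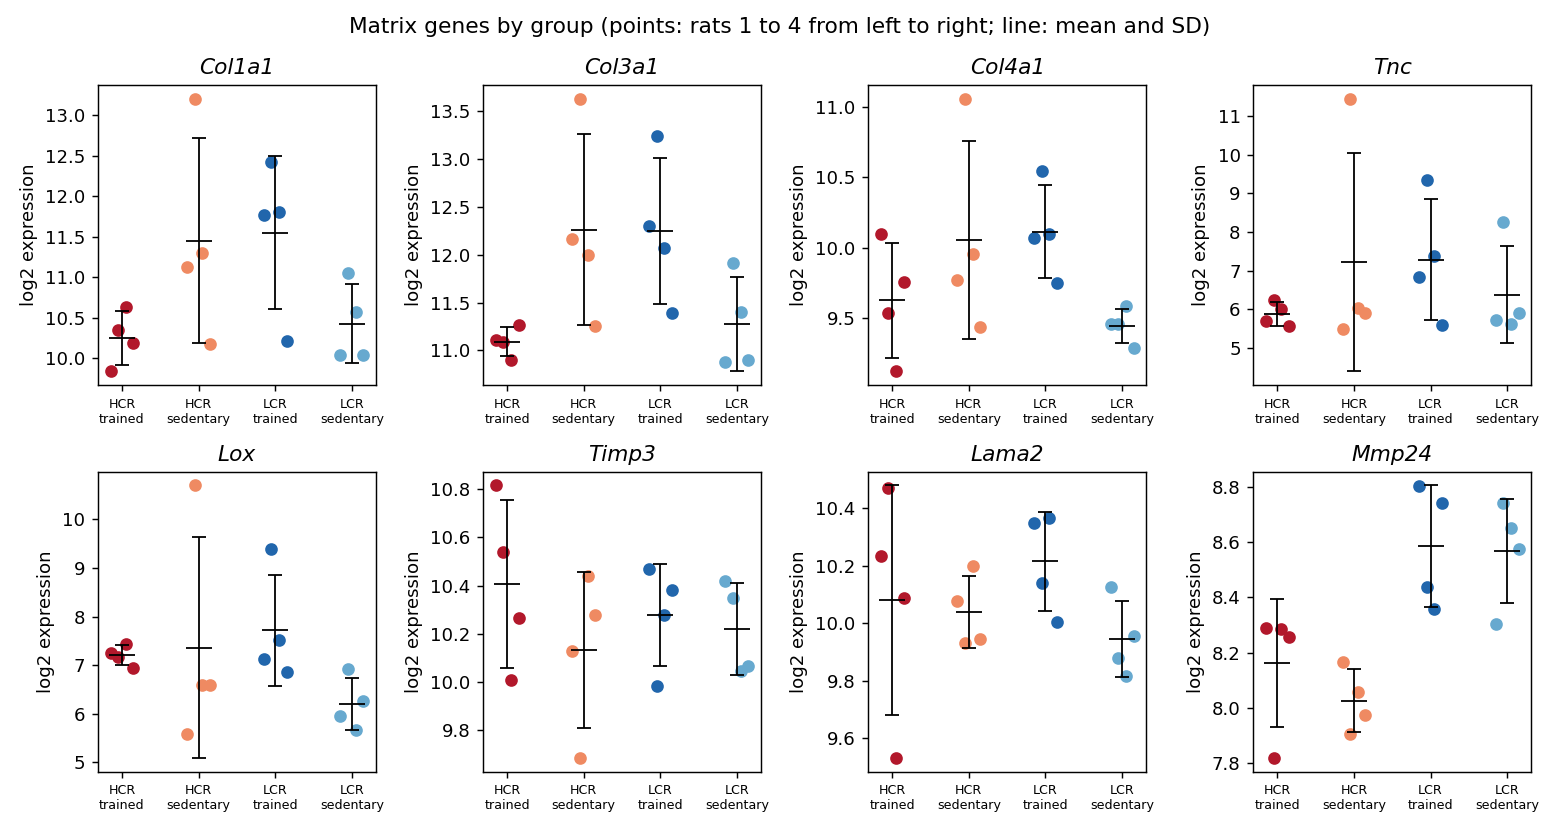
Log2 expression of Col1a1, Col3a1, Col4a1, Tnc, Lox, Timp3, Lama2 and Mmp24 on each array, by group. Points are rats 1 to 4 from left to right, horizontal lines are means and bars are SD over 4 rats. In the sedentary HCR group the second point stands far above the others for Tnc and Lox, at 11.45 and 10.70, while for Mmp24 the sedentary HCR points lie under all LCR points.

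Type VI collagen, the network around each fibre, was lower in trained than in sedentary HCR rats and higher in trained than in sedentary LCR rats for all 3 chains. Col6a2 read 8.91, 8.67, 8.84 and 8.80 in trained HCR rats, against 9.33, 11.20, 9.40 and 8.94 in sedentary HCR rats. It read 9.49, 10.63, 9.35 and 9.20 in trained LCR rats, against 8.67, 9.33, 8.85 and 8.61 in sedentary LCR rats. The HCR groups did not overlap, and the LCR groups overlapped through 1 sedentary rat. Training differences were -0.91 in HCR (SE 0.40, adjusted p = 0.256, limma) and 0.81 in LCR (SE 0.40, adjusted p = 0.538, limma). Col6a3, the longest chain, differed between sedentary lines by 1.09 (SE 0.48, adjusted p = 0.590, limma). Without both arrays the medians over the 3 chains were -0.38 in HCR and 0.48 in LCR, with the same sign in 3 of 3.

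The fibril-associated collagens Col12a1 and Col14a1, which coat fibres of type I collagen, differed from each other in HCR. Col14a1 read 9.39, 9.60, 8.32 and 9.87 in trained HCR rats, against 9.85, 11.41, 9.65 and 9.69 in sedentary HCR rats. Its lowest value came from HCR trained 3 and its highest from HCR sedentary 2, and the training difference was -0.86 (SE 0.41, adjusted p = 0.298, limma). Col12a1 differed by -0.06 in HCR and by 0.68 in LCR, and by 0.40 and 0.48 without both arrays.

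Basement membrane genes moved less than the fibrillar genes, with median training differences of -0.29 in HCR and 0.27 in LCR over 11 genes. Col4a1, a chain of the type IV network, read 10.10, 9.54, 9.12 and 9.76 in trained HCR rats, against 9.77, 11.06, 9.95 and 9.44 in sedentary HCR rats. It read 10.07, 10.55, 10.10 and 9.75 in trained LCR rats, against 9.46, 9.46, 9.59 and 9.29 in sedentary LCR rats. In LCR all trained rats were above all sedentary rats, and the difference was 0.67 (SE 0.29, unadjusted p = 0.0344, adjusted p = 0.475, limma), or 0.52 without both arrays. Col4a2, its partner chain from the shared promoter region shown above, differed by 0.57 in LCR (SE 0.26, adjusted p = 0.497, limma) and by -0.29 in HCR.

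Among the basement membrane genes, Lamb1 had the smallest p for training in HCR and between sedentary lines, Nid1 for training in LCR and in the interaction, and Col15a1 between trained lines. Lamb1, the laminin beta 1 chain, read 8.34, 8.24, 7.83 and 8.25 in trained HCR rats, against 8.61, 9.67, 8.53 and 8.34 in sedentary HCR rats. It read 8.74, 9.02, 8.47 and 8.03 in trained LCR rats, against 8.16, 8.21, 8.16 and 7.90 in sedentary LCR rats. The sedentary HCR rats were above both the trained HCR and the sedentary LCR rats, the closest pair of HCR values being 8.34 in each state. Lamb1 differed by -0.62 with training in HCR (SE 0.25, adjusted p = 0.218, limma) and by 0.68 between sedentary lines (SE 0.25, adjusted p = 0.565, limma). Nid1, nidogen 1, which links laminin to type IV collagen, differed by 0.65 with training in LCR (SE 0.26, adjusted p = 0.449, limma). It differed by 0.62 between sedentary lines (adjusted p = 0.590, limma) and by -1.15 in the interaction (SE 0.36, adjusted p = 0.144, limma). The second Nid1 probe set went the other way in LCR. It read 7.33, 7.19, 7.26 and 7.42 in trained LCR rats, against 7.46, 7.42, 7.56 and 7.63 in sedentary LCR rats.

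Of the laminin chains, Lama2 and Lamb2 did not share the array pattern, while Lamb1 and Lamc1 were highest on HCR sedentary 2 and second highest on LCR trained 2. Lama2, the laminin alpha 2 chain of the muscle basement membrane, read 10.23, 10.47, 9.53 and 10.09 in trained HCR rats, against 10.08, 9.93, 10.20 and 9.95 in sedentary HCR rats. In LCR it read 10.35, 10.14, 10.36 and 10.01 in trained rats, against 10.12, 9.88, 9.82 and 9.96 in sedentary rats. Its low point was HCR trained 3, and its HCR training difference was 0.04 (SE 0.16, adjusted p = 0.920, limma). Lamb2, the beta 2 chain enriched at nerve endings, was the only member lower in trained LCR rats, by -0.19 (SE 0.17, adjusted p = 0.740, limma). Lamc1, the gamma 1 chain, read 10.46, 10.68, 10.31 and 10.36 in trained LCR rats, against 10.26, 10.26, 10.20 and 10.05 in sedentary LCR rats, and differed by 0.26 (SE 0.16, adjusted p = 0.610, limma). Of the rest, Col15a1, a collagen at the outer face of the basement membrane, differed by -0.38 between trained lines (SE 0.15, adjusted p = 0.179, limma), and Col18a1, whose end fragment is endostatin, by 0.29 between sedentary lines (SE 0.13, adjusted p = 0.590, limma). Hspg2, which encodes perlecan, and Nid2, nidogen 2, spread little over the 16 arrays, with SDs of 0.26 and 0.22.

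Among the glycoproteins, Tnc and Postn had the widest spread of all 39 genes, with SDs of 1.67 and 1.70 over 16 arrays. Tnc, tenascin C, read 5.70, 6.25, 6.003 and 5.58 in trained HCR rats, against 5.49, 11.45, 6.04 and 5.91 in sedentary HCR rats. It read 6.83, 9.34, 7.37 and 5.61 in trained LCR rats, against 5.73, 8.26, 5.63 and 5.92 in sedentary LCR rats. High values thus came from 1 sedentary HCR rat, from 3 trained LCR rats to different degrees, and from 1 sedentary LCR rat. Its differences were within the spread, at -1.34 with training in HCR (SE 1.11, adjusted p = 0.565, limma) and 0.07 without HCR sedentary 2.

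Postn, periostin, read 8.50, 8.60, 5.82 and 7.92 in trained HCR rats, against 9.27, 12.35, 9.89 and 8.02 in sedentary HCR rats. It read 10.25, 12.03, 9.54 and 8.20 in trained LCR rats, against 7.47, 10.90, 8.03 and 8.37 in sedentary LCR rats. Its lowest value came from HCR trained 3. The training difference in HCR was -2.17 (SE 1.004, adjusted p = 0.276, limma), the most negative of the 39 genes, and the interaction was -3.48 (SE 1.42, adjusted p = 0.215, limma).

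Sparc, a collagen-binding glycoprotein, read 11.33, 10.27, 11.09 and 10.81 in trained HCR rats, against 11.33, 12.61, 11.33 and 11.07 in sedentary HCR rats. In LCR it read 11.68, 12.14, 11.57 and 11.30 in trained rats, against 10.89, 11.36, 11.02 and 10.71 in sedentary rats. The trained LCR values mostly lay above the sedentary LCR values, with 1 sedentary rat inside their range. It differed by -0.80 between trained lines (SE 0.30, adjusted p = 0.167, limma) and by -1.39 in the interaction (SE 0.43, adjusted p = 0.139, limma). Fn1, fibronectin, which links cells to collagen, and Fbn1, the fibrillin of elastic microfibrils, differed by -0.83 and -0.68 with training in HCR and by 0.72 and 0.66 in LCR. Thbs2 and Thbs4 are thrombospondins, and Thbs4 differed by 0.95 with training in LCR (SE 0.44, adjusted p = 0.507, limma).

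Eln, elastin, had the smallest spread, with an SD of 0.21, and the smallest p of the 39 genes for training in LCR. It read 7.90, 8.02, 7.57 and 7.87 in trained LCR rats, against 7.60, 7.53, 7.39 and 7.43 in sedentary LCR rats. The groups overlapped by 1 rat of each. The second Eln probe set did not show this rise. On it trained LCR rats read 6.76, 6.84, 6.36 and 6.61, against 6.71, 6.81, 6.54 and 6.82 in sedentary LCR rats. On the probe set of highest mean, the difference was 0.35 (SE 0.11, unadjusted p = 0.00692, adjusted p = 0.361, limma) in LCR and 0.02 in HCR. Between trained lines it was -0.29 (SE 0.11, adjusted p = 0.169, limma).

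The crosslinking enzyme Lox changed its picture when the arrays that stood apart were left out. Lox read 7.26, 7.18, 7.44 and 6.94 in trained HCR rats, against 5.58, 10.70, 6.59 and 6.58 in sedentary HCR rats. It read 7.12, 9.39, 7.52 and 6.86 in trained LCR rats, against 5.96, 6.92, 5.66 and 6.27 in sedentary LCR rats. In HCR every trained rat was above 3 of the 4 sedentary rats and under HCR sedentary 2. With all arrays its training difference was -0.16 in HCR (SE 0.84, adjusted p = 0.945, limma) and 1.52 in LCR (SE 0.84, adjusted p = 0.576, limma). Without HCR sedentary 2 and LCR trained 2 it was 0.95 in HCR (SE 0.30, unadjusted p = 0.00671, adjusted p = 0.236, limma) and 0.97 in LCR (SE 0.30, unadjusted p = 0.00613, adjusted p = 0.405, limma), and the interaction was -0.01 (SE 0.42), against -1.68 with all arrays. On the second Lox probe set trained HCR rats read 5.43, 4.67, 6.59 and 4.92, against 4.58, 9.90, 5.94 and 5.21 in sedentary HCR rats. There the HCR groups overlapped also without HCR sedentary 2. Trained LCR rats read 6.03, 8.21, 6.46 and 5.60, all above the sedentary LCR rats at 4.10, 4.69, 5.06 and 5.22. The HCR value of 0.95 and the interaction of -0.01 are thus those of the probe set of highest mean.

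Loxl1, a lysyl oxidase relative that acts on elastin, read 8.18, 8.27, 7.40 and 8.26 in trained HCR rats, against 8.45, 10.88, 8.37 and 8.73 in sedentary HCR rats. The groups did not overlap, and the difference was -1.08 (SE 0.48, adjusted p = 0.262, limma), or -0.49 without HCR sedentary 2. Without both arrays Loxl1 and the Lox probe set of highest mean thus had opposite signs in HCR. Serpinh1, the chaperone of procollagen folding, differed by -0.54 in HCR and 0.48 in LCR, and by -0.64 between trained lines (SE 0.27, adjusted p = 0.203, limma).

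The proteinase Mmp24, a membrane-type metalloproteinase, was lower in HCR than in LCR rats in both training states, without passing the test. It read 8.29, 7.82, 8.29 and 8.26 in trained HCR rats, against 8.81, 8.44, 8.36 and 8.74 in trained LCR rats. Sedentary rats read 8.17, 7.90, 8.06 and 7.97 in HCR, against 8.30, 8.74, 8.65 and 8.57 in LCR. In both states every HCR rat was below every LCR rat of that state. The difference was -0.42 in trained rats (SE 0.13, unadjusted p = 0.00539, adjusted p = 0.107, limma) and -0.54 in sedentary rats (SE 0.13, unadjusted p = 0.000858, adjusted p = 0.414, limma), and without HCR sedentary 2 and LCR trained 2 it was -0.47 and -0.50. The second Mmp24 probe set gave -0.53 in sedentary rats, where groups did not overlap (adjusted p = 0.292, limma), and -0.10 in trained rats, where they did (adjusted p = 0.603, limma). On that probe set trained HCR rats were all above sedentary HCR rats, by 0.35 (adjusted p = 0.127, limma). The third probe set was dim, with group means of 4.98 to 5.07 and differences between -0.08 and 0.01.

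Mmp14, which sits on the cell surface and activates Mmp2, read 8.32, 6.84, 7.81 and 7.86 in trained HCR rats, against 8.28, 10.15, 8.78 and 7.80 in sedentary HCR rats. The difference was -1.05 (SE 0.45, adjusted p = 0.241, limma), and the groups overlapped. On the second Mmp14 probe set the HCR groups lay closer, at 7.45, 7.15, 7.21 and 7.29 trained against 7.32, 7.89, 7.41 and 7.16 sedentary. Mmp2, a gelatinase, differed by -0.37 in HCR and 0.42 in LCR. Among the inhibitors, Timp2 read 10.48, 10.96, 10.24 and 10.02 in trained LCR rats, against 9.76, 9.98, 9.83 and 9.86 in sedentary LCR rats. All trained rats were above all sedentary rats, by 0.57 (SE 0.23, unadjusted p = 0.0290, adjusted p = 0.463, limma), and the interaction was -1.03 (SE 0.33, adjusted p = 0.147, limma). Timp1 read 11.02 on HCR sedentary 2 and 7.45 to 8.65 on the other sedentary HCR arrays. Timp3, the inhibitor bound to the matrix, went the other way on that array, which held its lowest value, 9.68, of all 16. Its training difference in HCR was 0.27 (SE 0.18, adjusted p = 0.455, limma).

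Where a gene had several probe sets they did not always share a sign. Of the 23 genes with more than 1 probe set, all probe sets had the same sign for 18 in HCR training, 19 in LCR training, 19 between sedentary lines, 18 between trained lines and 18 in the interaction.

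Partner chains of collagens I, IV and VI stayed close to a fixed ratio over the arrays, including those that stood apart. The difference between Col6a1 and Col6a2, which lie next to each other with 0 protein-coding genes between them, had an SD of 0.13 over 16 arrays, while each gene had an SD of 0.70 and 0.71. The difference between Col4a1 and Col4a2 had an SD of 0.16, against 0.49 and 0.43 for the genes. Col3a1 and Col5a2, also neighbours, gave 0.31, against 0.83 and 0.96. Col1a1 and Col1a2 lie on different chromosomes, and their difference had an SD of 0.22, against 0.96 and 0.82. Mmp2 and Timp2, which are not chains of 1 protein, gave 0.24, against 0.36 and 0.42. The laminin chains Lama2 and Lamb1 gave 0.45, against 0.23 and 0.45. Lox and Loxl1 held no such ratio, with an SD of 0.78 for the difference. Other pairs of members were not worked out. Since most members moved together, a steady ratio is not shown to be particular to partners or neighbours.

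Other matrix genes mostly had the signs of the 39 genes, and 2 of them passed between the trained lines. Of 21 further glycoproteins and elastic fibre genes, 18 were lower with training in HCR (median -0.30), 20 were higher with training in LCR (median 0.38), and 19 were lower in trained HCR than trained LCR rats (median -0.30). Fbln2, fibulin 2, passed in trained rats with a difference of -0.81 (SE 0.14, adjusted p = 0.0341, limma). It read 9.55, 9.08, 9.09 and 9.45 in trained HCR rats, against 9.98, 10.37, 10.14 and 9.90 in trained LCR rats, and the groups did not overlap. Adamts1, a secreted proteinase that cuts proteoglycans, passed with -0.48 (SE 0.09, adjusted p = 0.0391, limma), as 1 of 25 further proteinases and inhibitors, whose median was -0.05. With each of the 16 arrays left out in turn, Fbln2 passed in 8 of the fits (adjusted p = 0.0213 to 0.108, limma) and Adamts1 in 8 (adjusted p = 0.0268 to 0.133, limma). Neither call held in every fit, while the differences ranged from -0.89 to -0.71 for Fbln2 and from -0.55 to -0.41 for Adamts1. With the beta-actin index as covariate neither passed (adjusted p = 0.361 and 0.365, limma).

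Of 16 enzymes of collagen synthesis and crosslinking, 13 were lower with training in HCR (median -0.11) and 13 higher in LCR (median 0.22), with 0 past the threshold. Of 18 integrins and other matrix receptors, 15 were lower with training in HCR (median -0.21), 14 higher in LCR (median 0.24) and 17 lower in trained HCR than trained LCR rats (median -0.20), with 0 past the threshold. Itga1, a collagen-binding integrin chain, had the smallest p there, with -1.14 between trained lines (SE 0.27, adjusted p = 0.0607, limma). Of 14 further collagens and laminins, 10 were lower in trained HCR than trained LCR rats (median -0.09). Genes of TGF-beta and CTGF signalling, which drive collagen production, were not shifted one way, with 6 of 13 higher with training in HCR (median -0.0023) and 8 of 13 in LCR (median 0.13). Smad7, an inhibitor in that pathway, differed by 0.44 with training in LCR (SE 0.09, adjusted p = 0.248, limma) and by -0.39 between trained lines (SE 0.09, adjusted p = 0.0697, limma).

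The means of macrophage, fibroblast and cell division markers moved with the matrix genes on the same arrays. The means of tendon, endothelial, fat and muscle fibre markers were not highest there. The mean of 18 macrophage and leukocyte markers stood 1.26 above its 16-array mean on HCR sedentary 2 and 0.52 above on LCR trained 2. By group that mean ranged from -0.65 to -0.01 in trained HCR rats, -0.20 to 1.26 in sedentary HCR rats, 0.01 to 0.52 in trained LCR rats and -0.40 to 0.05 in sedentary LCR rats. All 18 markers were lower with training in HCR (median -0.44, and -0.09 without HCR sedentary 2), and 17 of 18 were higher with training in LCR (median 0.58, and 0.46 without LCR trained 2), with 0 past the threshold. Cd68, a lysosomal protein of macrophages, read 8.72 on HCR sedentary 2 and 6.43 to 7.04 on the other sedentary HCR arrays. The array values have no true zero, and no marker can be called absent.

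The mean of 11 fibroblast markers was highest on LCR trained 2 (0.60) and next on HCR sedentary 2 (0.46), and ranged from -0.31 to -0.22 in trained HCR rats, -0.27 to 0.46 in sedentary HCR rats, -0.02 to 0.60 in trained LCR rats and -0.13 to 0.09 in sedentary LCR rats. In this mean the trained HCR rats were all below the trained LCR rats, an order that leans on 1 marker, Clec3b. It read 5.32, 6.05, 7.92 and 5.37 in trained HCR rats, against 8.79, 9.30, 8.58 and 8.67 in trained LCR rats. Marker by marker, 10 of 11 were lower in trained HCR than trained LCR rats (median -0.46). The markers were split on HCR sedentary 2. Gsn and Fmod read 11.45 and 9.22 there, their lowest of 16 arrays, and Pi16 read 8.31, under its 16-array mean of 8.68. Thy1 read 9.14 there and 5.58 to 6.64 on the other arrays. Fmod is also counted among the tendon markers. Dcn, the proteoglycan decorin, was the marker of this list to pass, with -0.66 between trained lines (SE 0.13, adjusted p = 0.0391, limma), and it passed in 8 of the 16 fits that leave out 1 array (adjusted p = 0.0231 to 0.133, limma). Tendon markers did not follow, with a mean of 5 at -0.28 on HCR sedentary 2 and -0.21 on LCR trained 2. Cell division markers had their highest mean on HCR sedentary 2, at 0.72, and Mki67 read 6.52 there and 4.87 to 5.38 on the other arrays.

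Fast-fibre markers had their highest group mean in trained HCR rats. The list was not shifted as a whole with training in HCR or between trained lines. Marker by marker, 6 of 9 were higher with training in HCR (median 0.085) and 9 of 9 in LCR (median 0.26). Between trained lines, 4 were higher in HCR and 5 lower (median -0.05). The mean of 9 such markers ranged from 0.22 to 1.91 in trained HCR rats, -0.65 to 0.35 in sedentary HCR rats, -0.37 to 0.08 in trained LCR rats and -0.95 to -0.14 in sedentary LCR rats. Myh4, the fast myosin heavy chain of type IIb fibres, read 11.08, 8.43, 13.57 and 9.98 in trained HCR rats, against 4.76, 8.03, 4.88 and 5.05 in sedentary HCR rats, and 4.83 to 5.80 in LCR rats. It was the marker of this list to pass, with 5.09 for training in HCR (SE 0.87, adjusted p = 0.0475, limma) and 5.48 between trained lines (SE 0.87, adjusted p = 0.0281, limma). Of the 16 fits that leave out 1 array, it passed in 5 for training in HCR (adjusted p = 0.0343 to 0.105, limma) and in 11 between trained lines (adjusted p = 0.00836 to 0.0836, limma), and its difference ranged from 4.15 to 5.87 and from 4.55 to 6.26. Slow-fibre markers were lower for 8 of 8 with training in HCR (median -0.58), with a mean of -2.35 on HCR trained 3 and -0.04 to 0.27 on the other arrays.

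Of 7 adipocyte markers, 6 were higher with training in HCR (median 0.39) and 6 lower with training in LCR (median -0.64), with 0 past the threshold, and their mean was -0.59 on HCR sedentary 2 and -0.40 on LCR trained 2. Of 11 endothelial markers, 10 were higher with training in HCR (median 0.08) and 10 in LCR (median 0.18), with 0 past the threshold, and their mean was -0.07 on HCR sedentary 2 and 0.14 on LCR trained 2. The part of these cell types in the matrix differences was not tested.

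A control measure of RNA and labelling moved with the matrix genes as well. The beta-actin index is the 3′ minus the middle control probe set, in log2 units, and it was lowest on HCR sedentary 2 (0.38) and on LCR trained 2 (1.06), with 1.32 to 2.37 on the other arrays. Group means were 1.90 ± 0.35 in trained HCR rats, 1.18 ± 0.54 in sedentary HCR rats, 1.27 ± 0.14 in trained LCR rats and 1.65 ± 0.32 in sedentary LCR rats (SD, n = 4 each). With this index as a covariate the median training difference was 0.01 in HCR and 0.28 in LCR, and the median line difference was 0.19 in sedentary and -0.09 in trained rats. The 3′ minus the 5′ control probe set of Gapdh was 0.56 on both HCR sedentary 2 and LCR trained 2, inside the range of 0.48 to 1.67 on the other arrays.

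**Figure D4:**
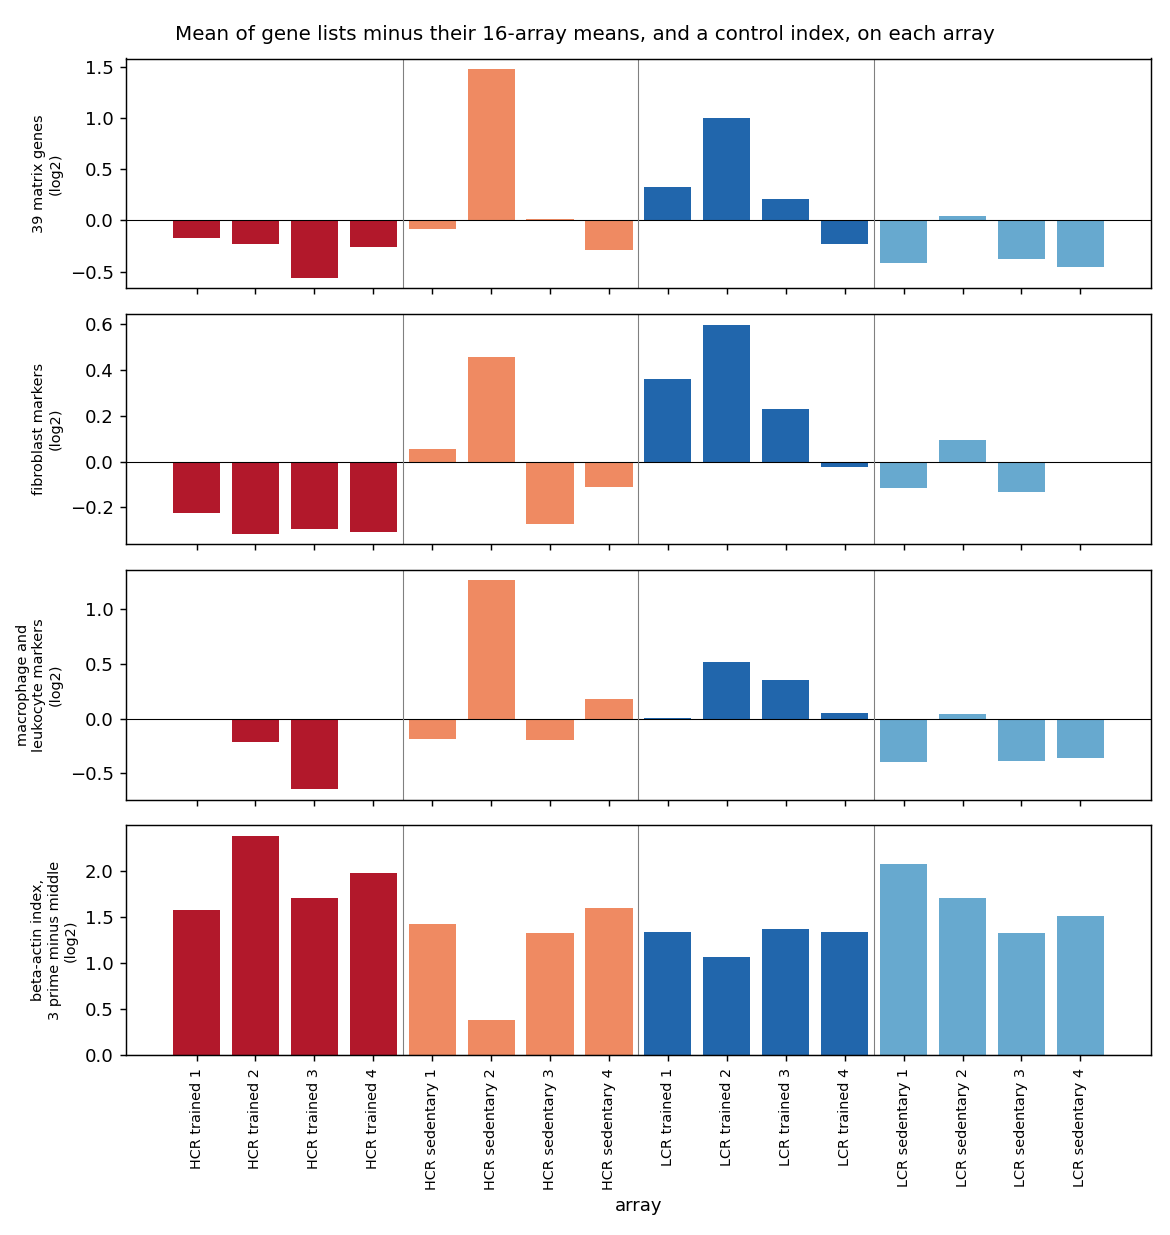
Mean of the 39 matrix genes, of 11 fibroblast markers and of 18 macrophage and leukocyte markers, each minus its 16-array mean in log2 units, and the beta-actin index in log2 units, on each array. Bars are single arrays coloured by group. The 3 list means are high and the index low on HCR sedentary 2 (1.48, 0.46, 1.26 and 0.38 from top to bottom).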

How the data were processed

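Each rat gave 20 mg of soleus, whose total RNA went onto an Affymetrix rat array of its own, per the labels. The values deposited by the authors are log2 expression for each probe set. The submitters' processing notes name RMA (background correction, quantile normalization and probe summary) and limma; their versions were not given in the sources used here. RMA removes shifts common to all probe sets, so each difference is relative to the rest of the array, and no detection calls were used. The number of arrays limits the precision. Scan dates were not used here, so scanning batches were not tested.

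From these values, 57 control probe sets were left out and 31042 were fitted with limma 3.58.1 in R 4.3.3 (lmFit and eBayes, 4 group means, 12 residual degrees of freedom), two-sided, with Benjamini-Hochberg adjustment within each of 5 comparisons at 0.05. Of these probe sets 20826 had 1 gene symbol, 436 several and 9780 none. All 39 measured symbols were the same in RefSeq GRCr8, which also gave the promoter windows. Members, marker lists and tests were chosen with earlier results of these data known. Every member may be named, and full statistics are given for members past the threshold or, with none, for the 5 of smallest p in each direction; other genes are those past the threshold or the 2 of smallest p in a list. Member values and statistics outside that rule, and Cd68, Mki67, Gsn, Fmod, Pi16, Thy1 and Clec3b, were chosen for display after their values were seen. The fit was tested on simulated data. Alternatives were quantile normalization, median centring, a filter on dim probe sets (40th percentile, 5.61), array weights, trended and robust moderation, the replicate number as a block, the beta-actin index as covariate, a fit of the compared groups, the mean of a gene's probe sets, each array left out, and HCR sedentary 2 and HCR trained 3 left out. Leaving out HCR sedentary 2 and LCR trained 2 was added after seeing the data.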

Additional observations from a re-analysis of the deposited data

Results flagged for a closer look

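Within each group of 4 rats, the highest or lowest value was marked where its gap to the next exceeded Dixon's limit, which chance does in about 1 in 20 groups. Of 156 combinations of gene and group, 13 were marked, 6 of them for HCR sedentary 2 and 3 for HCR trained 3.

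On HCR sedentary 2, 6 genes stood far above the other 3 sedentary HCR rats: Tnc at 11.45 (others 5.49 to 6.04), Fn1 at 12.80 (10.10 to 10.44), Loxl1 at 10.88 (8.37 to 8.73), Col14a1 at 11.41 (9.65 to 9.85), Sparc at 12.61 (11.07 to 11.33) and Timp2 at 11.22 (10.01 to 10.18). On HCR trained 3, the array of low slow-fibre transcripts, 3 genes stood below the other trained HCR rats: Loxl1 at 7.40 (8.18 to 8.27), Hspg2 at 8.14 (8.66 to 8.73) and Lamb2 at 9.51 (10.14 to 10.25). Tnc on LCR sedentary 2 was 8.26, against 5.63 to 5.92 in the other sedentary LCR rats. Mmp24 on HCR trained 2 was 7.82, against 8.26 to 8.29 in the other trained HCR rats. Col18a1 on LCR trained 4 was 6.79, against 7.01 to 7.05, and Lamb1 on LCR sedentary 4 was 7.90, against 8.16 to 8.21. The causes were not tested.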

How the results depend on the processing

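With each array left out in turn, 0 members passed in any of the 5 comparisons, and the median difference ranged from -0.64 to -0.20 for training in HCR, 0.41 to 0.80 for training in LCR, 0.24 to 0.81 between sedentary lines, -0.81 to -0.34 between trained lines and -1.31 to -0.76 in the interaction. The labels do not say that the replicate numbers pair the rats. Correlations of same-numbered deviations ran from -0.48 to 0.33, which cannot settle whether they do, since each is of single arrays. With the replicate number as a block 0 members passed in each comparison, the same count as without it. With array weights 4 of the 39 members passed between trained lines, beside 3525 of 31042 probe sets. Among the 4 were Col3a1 at -1.04 (adjusted p = 0.0461, limma) and Sparc at -0.75 (adjusted p = 0.0357, limma). Without HCR sedentary 2 and HCR trained 3, 1 of the 39 passed, beside 1315 of 31042 probe sets. In the other alternatives run for the count of members past the threshold, which did not include the mean of a gene's probe sets, it was 0. The median for training in HCR came to -0.10 with both HCR sedentary 2 and HCR trained 3 left out. Among genes outside the members, Fbln2, Adamts1, Dcn and Myh4 passed in none of their comparisons with the replicate number as a block (adjusted p = 0.0669 to 0.0983). With the beta-actin index as covariate the median was 0.009 for training in HCR and -0.26 in the interaction, and without HCR sedentary 2 and LCR trained 2 the interaction median was -0.56. Of the medians under alternatives, 127 moved by less than the SD between rats, 0.50, and 3 by more. That SD is about as large as several of the medians themselves, so this count cannot show that they held. With the beta-actin index the line median went from 0.63 to 0.19 in sedentary rats and from -0.53 to -0.09 in trained rats. Both are among the 127.

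Single genes changed sign, and none of them passed. With the beta-actin index, training in HCR gave 0.055 for Sparc and 0.12 for Mmp14, against -0.71 and -1.05 without it, and -0.040 for Timp3 and -0.16 for Lama2, Timp3 gave 0.12 between sedentary lines, -0.15 between trained lines and -0.26 in the interaction, and Lamb2 gave -0.20 in the interaction. Quantile normalization gave -0.0085 for Eln in HCR. Array weights gave 0.10 for Timp3 between sedentary lines and -0.018 for Nid2 between trained lines. Leaving out HCR sedentary 2 with HCR trained 3, or with LCR trained 2, gave 0.062 for Timp3 between sedentary lines, and the second of these gave -0.032 for Timp3 and -0.073 for Lamb2 in the interaction. Over single arrays left out, training in HCR ranged from -0.087 to 0.23 for Lama2 and -0.062 to 0.11 for Eln, Timp3 from -0.19 to 0.062 between sedentary lines and -0.008 to 0.26 between trained lines, Nid2 from -0.044 to 0.032 between trained lines, and Lamb2 from -0.054 to 0.26 in the interaction. The cause of these changes was not tested.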
